A study of Mus musculus with 22 samples.

Results

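Mitochondrial fatty acid beta-oxidation was followed through the transcripts of 10 genes in brown adipose tissue (BAT) of mice with and without cytoplasmic polyadenylation element binding protein 2 (CPEB2). The genes were chosen by name as the enzymes that carry long-chain fatty acids into the mitochondrial matrix and shorten them there, and all 10 were found among the 55487 gene identifiers of the count tables and passed the filter on low counts in every comparison. RNA-seq libraries were made from 22 mice, 1 library per mouse. The untreated cohort held 5 CPEB2-WT and 5 CPEB2-KO mice of 21 to 25 weeks. In the AAV cohort, 3 WT and 3 KO mice received adeno-associated virus expressing GFP, and 3 WT and 3 KO mice received virus expressing PRDM16, a transcriptional regulator of brown fat identity. The virus, 20000000000 vector genomes in 30 µl at 10 µl per site, was placed in the interscapular BAT at 16 weeks, and the tissue was taken 9 weeks later. Injected groups are named by genotype and virus, as in KO + AAV-PRDM16, and untreated mice by genotype alone. All mice were C57BL/6, labelled male and fed chow with 9% fat, and the labels name no other allele. In the untreated cohort food was withheld for several hours before the tissue was taken. The KO is global, so the deletion was not confined to BAT, and the viral PRDM16 is a flag-tagged coding sequence, so Prdm16 counts mix the mouse's own and viral RNA.

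Long-chain fatty acids enter the mitochondrion as carnitine esters. Carnitine palmitoyltransferase 1, at the outer membrane, makes the ester and is the step that malonyl-CoA inhibits, and its forms are named after liver (Cpt1a) and muscle (Cpt1b). Cpt2, at the inner membrane, turns the ester back into acyl-CoA. Each turn of beta-oxidation then starts with an acyl-CoA dehydrogenase matched to chain length (Acadvl for very long, Acadl for long and Acadm for medium chains). The later steps use, depending on chain length, the trifunctional protein made of Hadha and Hadhb subunits for long chains, the short-chain hydroxyacyl-CoA dehydrogenase Hadh, and the thiolase Acaa2. In brown fat this pathway supplies much of the fuel that UCP1 turns into heat, and its genes are well known targets of PPAR and PGC-1 factors.

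The members lie on 8 chromosomes of GRCm38, as protein-coding genes of the GENCODE M21 annotation. The entry genes are Cpt1a (chr19:3322334-3385733), Cpt1b (chr15:89416405-89425863) and Cpt2 (chr4:107903981-107923610). The dehydrogenases are Acadvl (chr11:70010183-70015411), Acadl (chr1:66830839-66863277) and Acadm (chr3:153922357-153944632), and Hadh (chr3:131233419-131272101) shares chromosome 3 with Acadm. Hadha (chr5:30118304-30155162) and Hadhb (chr5:30155248-30184593) are neighbours that are transcribed away from each other. The 85 bases between the annotated genes (chr5:30155163-30155247, GRCm38, + strand) are shown because these genes, for subunits of 1 enzyme, are compared with each other further on. Between the RefSeq starts of the genes lie 272 bases. In the 85 bases shown, 69.4% were G or C, and CpG (a C followed by a G) occurred 9 times.
Hadha to Hadhb: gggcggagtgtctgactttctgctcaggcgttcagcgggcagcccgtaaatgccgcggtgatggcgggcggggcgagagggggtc

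Promoter windows of 300 bases (250 before to 50 after the RefSeq start, GRCm38) were available for 8 of the 10 members, all but Cpt1b and Acaa2. They were searched on both strands for elements of nuclear receptors, the class that PPARs belong to, and of NRF1, a regulator of mitochondrial genes. The nuclear receptor half-site AGGTCA was found in 3 of the 8 windows, those of Acadm, Acadvl and Cpt1a, and in 16.3% of 32851 windows of all genes. The estrogen-related receptor element TNAAGGTCA, which contains the half-site, the DR1 repeat (AGGNCA 2 times with 1 base between) and the NRF1 site (GCGC and TGCGC with 1 base between) were in none of the 8, against 1.28%, 0.381% and 4.6% of all windows. The matches are printed in capitals with their surroundings, on the strand of the gene.
Acadm, chr3:153944870-153944893, - strand: gTGACCTtcgggctccggtgacac
Acadvl, chr11:70015501-70015524, - strand: gatcaccctAGGTCAggtagaata
Cpt1a, chr19:3323198-3323221, + strand: tttccttacTGACCTcctccccgc
In Acadm and Cpt1a the capitals are the half-site read on the opposite strand (TGACCT), and in Acadvl it is read along the gene.

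CPEB proteins bind U-rich elements near the end of messenger RNAs, of which TTTTAT (as DNA) is the classic form. In the last 150 bases of the transcript with the longest coding sequence, TTTTAT on the strand of the gene was found in 1 of the 9 members with a 3′ untranslated region of that length, Acadm, and in 18.3% of 18146 genes. Over whole 3′ untranslated regions, Acadm held it 2 times and Cpt1a and Acadl 1 time each. The Acadm site nearest to the transcript end, shown because it is the match of the members that lies closest to a transcript end, lay 42 bases from it.
Acadm, chr3:153922390-153922413, - strand: gaacgagaaTTTTATttgtcttgt
A match of letters is a description of the sequence and not a measured site.

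In units of 1000000 counts, libraries held 55.3 to 162.7 in the untreated and 61.6 to 143.0 in the AAV cohort, and replicate libraries were compared with each other and none repeated another. Cpeb2 fell in KO libraries of the AAV cohort, from 10.5 to 14.0 counts per 1000000 counts (CPM) in the 6 WT to 4.33 to 5.55 in the 6 KO libraries (edgeR, adjusted p = 0.000449). In the untreated cohort its difference did not pass the adjusted test (-0.99 ± 0.41 (SE) on the log2 scale, adjusted p = 0.305), and the library labelled KO replicate 1 held 11.7 CPM, as much as WT. In 6 of the 10 untreated libraries (WT replicates 3 and 5, KO replicates 1, 3, 4 and 5) Xist was above 100 CPM and Y-linked transcripts were near 0 although the labels give males, and WT replicate 4 held both (Xist 14.0 and Y-linked 115.7 CPM), whereas the 12 AAV libraries all held Y-linked transcripts. Skeletal muscle markers (12 genes) summed to 9.35 to 7362 CPM in the untreated cohort, with WT replicate 3 (3599), KO replicate 1 (6486) and KO replicate 2 (7362) highest, and to 0.421 to 105 CPM in the AAV cohort. All 10 brown adipocyte markers, Ucp1 among them, had counts in every group. Fewer brown adipocytes and less RNA per brown adipocyte cannot be told apart in such bulk samples. The AAV cohort is therefore given first, and results of the untreated cohort with and without these libraries.

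Of the members, 9 were abundant and 1 was scarce. In WT + AAV-GFP, Cpt1a stood at 15.4 ± 2.05 CPM (SD, n = 3) and Cpt1b at 818 ± 72.8. The other members lay between 416 ± 51.8 CPM for Cpt2 and 2206 ± 70.1 for Hadhb. Together the 10 genes took 1.16% to 1.5% of all counts in the AAV cohort and 0.875% to 1.38% in the untreated cohort. Cpt1a was read with at least 407 counts in a library and every other member with at least 15944, so counting error was small beside the spread between mice.

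Levels of different genes were compared per length, as CPM per kilobase of the transcript with the longest coding sequence. This length was chosen after seeing the data. On this scale, in WT + AAV-GFP, Hadhb (1077 ± 34.2, SD, n = 3), Acaa2 (981 ± 111), Acadm (980.2 ± 108) and Acadl (959 ± 76.4) stood highest. The libraries of Acaa2, Acadm and Acadl overlapped each other, and those of Hadhb lay above Acadl and overlapped the other two. Acadvl (844 ± 31.5), Hadh (637 ± 45.1) and Hadha (533 ± 6.91) followed. The carnitine transferases stood below them, with Cpt1b at 283 ± 25.1, Cpt2 at 175 ± 21.8 and Cpt1a at 3.56 ± 0.476. The order depended on the length used. Per kilobase of all annotated exons, Hadhb stood at 335, Hadh at 229 and Acadm at 513, so that Acaa2 (981) and Acadl (917) stood highest there. Cpt2 and Cpt1a were the lowest on either scale.

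**Figure D1:**
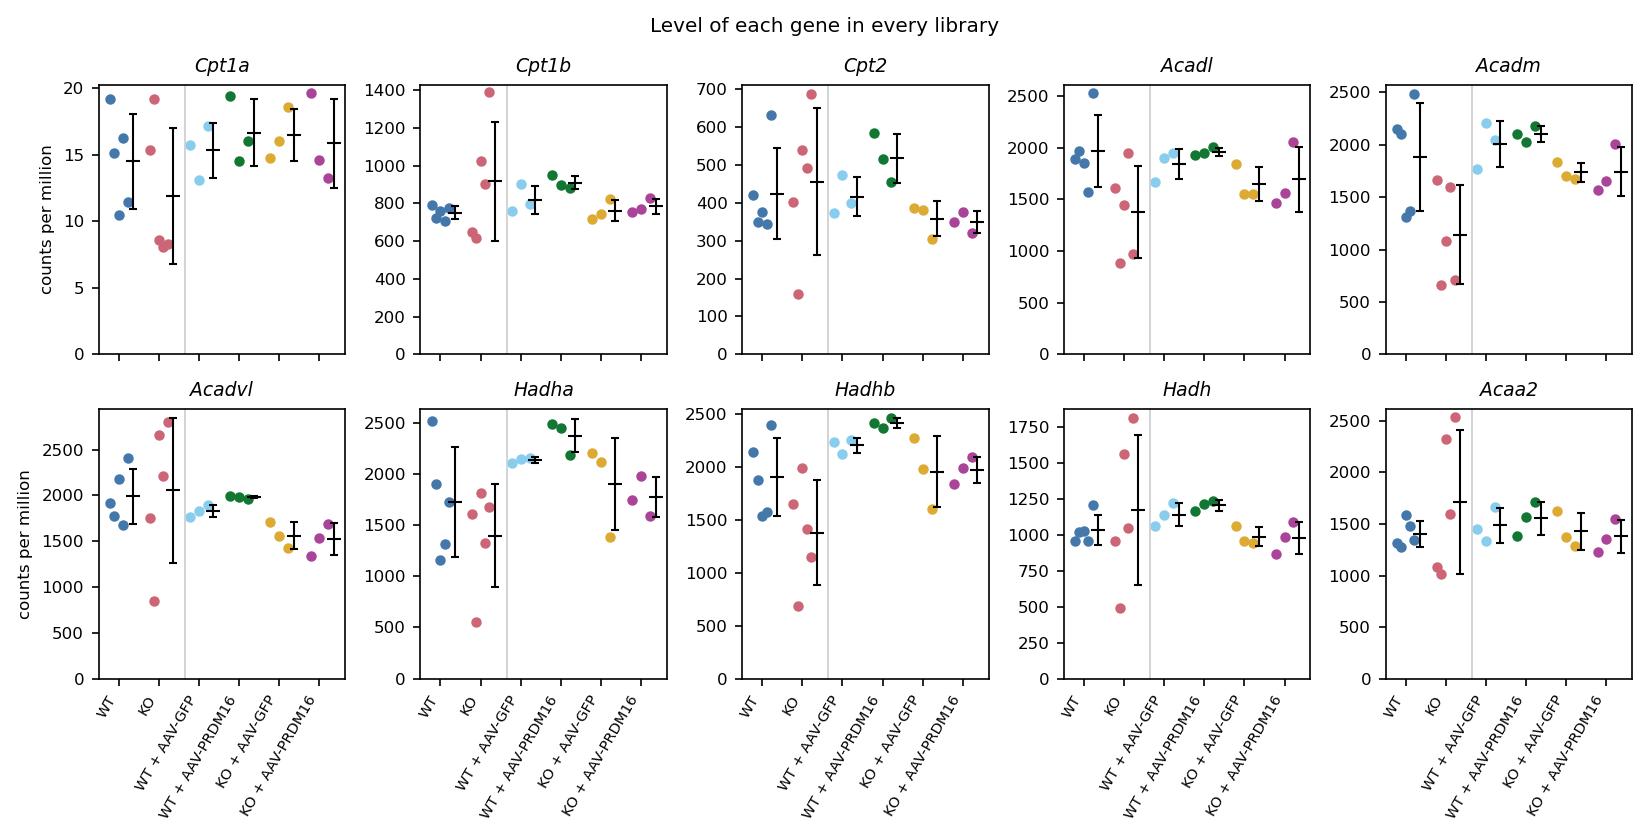
CPM of the 10 genes (linear axis from 0) in the 22 libraries by group, 1 point per mouse, with the group mean and SD as a bar beside the points. The grey line parts the untreated from the AAV cohort. The 5 KO points are widely spread, as for Acaa2 from 1019 to 2541 CPM, and in WT + AAV-PRDM16 the Acadvl points lie within 1966 to 1993 CPM.

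The comparison of KO with WT under the same virus asks what the loss of CPEB2 does to these transcripts in BAT that has been injected. Taken over both viruses, 9 of the 10 members had a log2 fold change below 0, as 48.4% of all genes did, with a median of -0.24 (lowest -0.39, highest 0.02) against 0.01 over the 18899 genes tested. No member passed an adjusted p of 0.05 in edgeR's quasi-likelihood test, which called 2.18% of all genes. DESeq2 passed 3 members (Cpt2, Acadvl and Hadh) and 9.93% of its genes, and limma-voom passed 5 (Acadm and Hadhb as well) and 6.71%. At an unadjusted p under 0.05, 7 members were lower and 0 higher, against 8.76% of all genes lower and 9.54% higher. That count was 6 to 8 under the 19 alternative settings. The share of all counts taken by the 10 genes was 1.34% to 1.5% in the 6 WT and 1.16% to 1.33% in the 6 KO libraries. These ranges did not overlap but nearly met, at 1.342% and 1.327%. The shares are of raw totals, of which the mitochondrial genome took 29.6% to 36.9%. How often other sets of 10 genes separate the genotypes was not tested.

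Among the entry genes, Cpt2 had the smallest p. Its level was 374, 474 and 401 CPM in WT + AAV-GFP and 583, 516 and 454 in WT + AAV-PRDM16. In the KO mice it was 387, 382 and 304 CPM with AAV-GFP and 350.4, 377 and 320.2 with AAV-PRDM16. The KO libraries overlapped WT only at the WT + AAV-GFP library of 374 CPM, which lay below 3 KO libraries. The difference over both viruses was -0.39 ± 0.10 (SE) on the log2 scale, a change of -23.8% (edgeR, unadjusted p = 0.00154, adjusted p = 0.0575), and with AAV-PRDM16 alone it was -0.57 ± 0.14 (SE) (adjusted p = 0.129). Across 19 alternatives the adjusted p of Cpt2 over both viruses ran from 0.00445 with DESeq2 to 0.142.

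The muscle form Cpt1b was lower by less. It held 761, 900.1 and 795 CPM in WT + AAV-GFP, 948, 898 and 883 in WT + AAV-PRDM16, 715, 741 and 823 in KO + AAV-GFP and 756, 768 and 828 in KO + AAV-PRDM16. The groups overlapped with AAV-GFP and did not with AAV-PRDM16. Over both viruses the difference was -0.16 ± 0.07 (SE) (unadjusted p = 0.0445, adjusted p = 0.257 by edgeR). In the annotation, Cpt1b shares 81.4% of its exon bases with Gm44502, an annotated gene on the same strand that held 2.31 to 20.5 CPM in these libraries, so reads of both cannot be fully separated. Cpt1a differed least, at 0.02 ± 0.12 (SE) (adjusted p = 0.967), and its WT libraries (13.1 to 19.5 CPM) and KO libraries (13.3 to 19.7) overlapped.

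The dehydrogenase Acadvl was the 1 member whose 6 KO libraries all lay below all 6 WT libraries, which 1.58% of all genes did. It held 1760.4, 1829 and 1897 CPM in WT + AAV-GFP, 1993, 1983 and 1966 in WT + AAV-PRDM16, 1712, 1554 and 1421 in KO + AAV-GFP and 1339, 1532 and 1690.2 in KO + AAV-PRDM16. The difference was -0.30 ± 0.08 (SE) on the log2 scale, a change of -19.0% (edgeR, unadjusted p = 0.00222, adjusted p = 0.0661). Acadvl shares 42.9% of its exon bases with Dvl2 on the opposite strand, and whether the counting used strand is not given in the sources used here. Dvl2 itself held 4.11 to 7.08 CPM, far below Acadvl.

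For the medium and long chain dehydrogenases the groups came closer. Acadm held 1769, 2206 and 2044 CPM in WT + AAV-GFP, 2099, 2031 and 2179 in WT + AAV-PRDM16, 1838, 1707 and 1669.5 in KO + AAV-GFP and 1566, 1658 and 2009.7 in KO + AAV-PRDM16. With AAV-GFP, 1 KO library lay above the lowest WT library, and with AAV-PRDM16 the genotypes did not overlap. The difference over both viruses was -0.24 ± 0.09 (SE) (unadjusted p = 0.0167, adjusted p = 0.159 by edgeR). For Acadl it was -0.19 ± 0.10 (SE) (adjusted p = 0.337), and KO + AAV-PRDM16 replicate 3, at 2049.9 CPM, was higher than every WT library.

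The subunits of the trifunctional protein differed by similar amounts. Hadha held 2109, 2150.1 and 2162 CPM in WT + AAV-GFP, 2489.8, 2451 and 2191 in WT + AAV-PRDM16, 2203, 2118 and 1383 in KO + AAV-GFP and 1745, 1980.2 and 1594 in KO + AAV-PRDM16. In KO + AAV-GFP 1 library was far below the other two, and they lay among the WT values. The difference over both viruses was -0.30 ± 0.11 (SE) (unadjusted p = 0.0218, adjusted p = 0.182 by edgeR).

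Hadhb held 2239.8, 2126 and 2253 CPM in WT + AAV-GFP, 2413, 2369 and 2461 in WT + AAV-PRDM16, 2277, 1979.6 and 1607 in KO + AAV-GFP and 1840.2, 1987 and 2091 in KO + AAV-PRDM16. Its genotypes overlapped with AAV-GFP and were apart with AAV-PRDM16. The difference over both viruses was -0.23 ± 0.09 (SE) (unadjusted p = 0.0207, adjusted p = 0.177 by edgeR).

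Hadh held 1059.5, 1139.9 and 1221 CPM in WT + AAV-GFP, 1167, 1216 and 1238 in WT + AAV-PRDM16, 1066, 956 and 947 in KO + AAV-GFP and 866, 983 and 1093 in KO + AAV-PRDM16. Of the KO libraries, 2 lay above the lowest WT library. The difference over both viruses was -0.25 ± 0.08 (SE) (unadjusted p = 0.00697, adjusted p = 0.104 by edgeR). The thiolase Acaa2 (chromosome 18) differed by -0.12 ± 0.10 (SE) (adjusted p = 0.579), and its WT libraries (1338 to 1711 CPM) and KO libraries (1231 to 1625) overlapped.

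**Figure D2:**
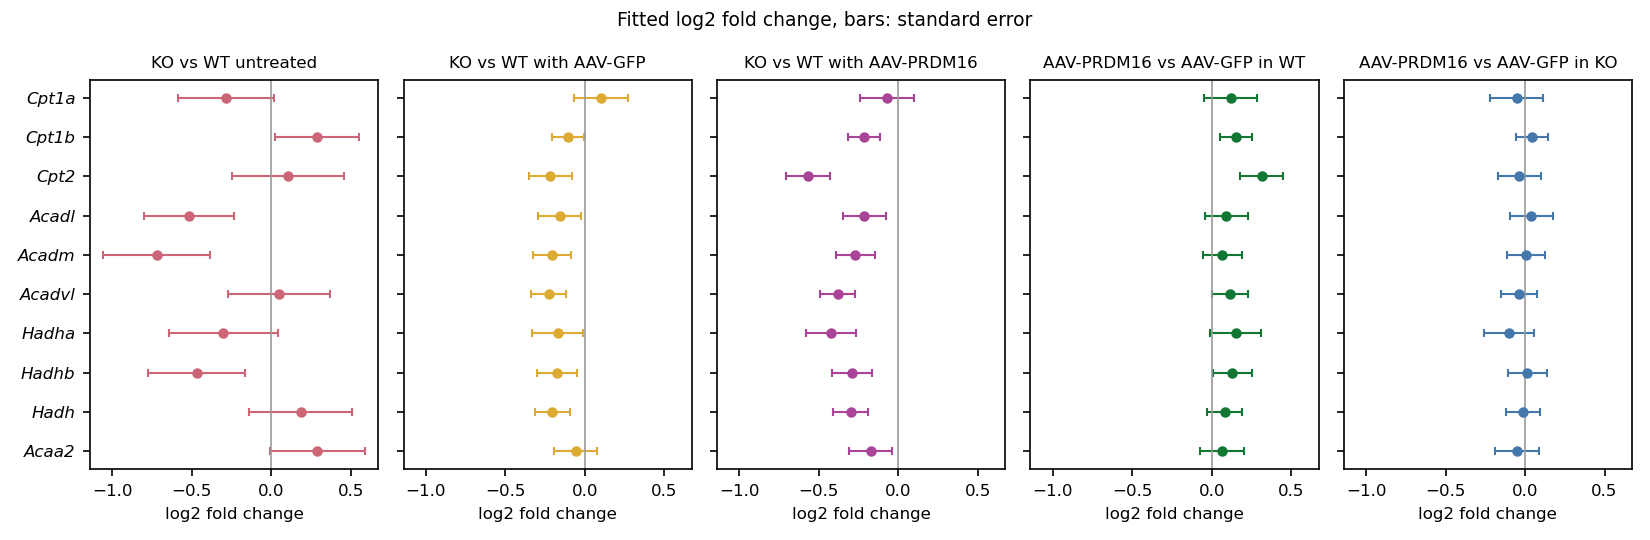
Fitted log2 fold change of the 10 genes (points) with its standard error (bars) in 5 comparisons, on the same linear axis. In KO vs WT with AAV-PRDM16 the 10 points lie below 0, from -0.57 for Cpt2 to -0.07 for Cpt1a, and in AAV-PRDM16 vs AAV-GFP in KO they lie between -0.10 and 0.05. The untreated comparison has the longest bars and points on both sides of 0.

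Within each virus, no member passed the adjusted test of edgeR. With AAV-GFP, the members' median was -0.17 (lowest -0.23, highest 0.10), and none had an unadjusted p under 0.05 (4.2% of all genes were lower at that threshold). That count was 2 without KO + AAV-GFP replicate 1 and with limma-voom. It was 1 with DESeq2, with the trends in GC content and length removed, and without WT + AAV-GFP replicate 1, KO + AAV-PRDM16 replicate 1 or KO + AAV-PRDM16 replicate 3. The smallest adjusted p by edgeR was 0.588, for Acadvl, and 0.0529% of all genes passed 0.05. Acadvl was also the 1 member whose libraries did not overlap, which 6.88% of all genes did in that direction. With AAV-PRDM16, all 10 members were below 0 (48.5% of all genes), with a median of -0.28 (lowest -0.57, highest -0.07). At an unadjusted p under 0.05, 6 members were lower, against 6.8% of all genes. The libraries of 7 members did not overlap, against 11.2% of all genes. An adjusted p of 0.05 was passed by 0 members, which 0.0476% of all genes did. DESeq2 passed 2 (Cpt2, Acadvl) and 3.71% of its genes, and limma-voom passed 3 (Hadh as well) and 2.88%. After Cpt2, the largest differences were those of Hadha (-0.42 ± 0.16 (SE), adjusted p = 0.276), Acadvl (-0.38 ± 0.11 (SE), adjusted p = 0.178), Hadh (-0.30 ± 0.11 (SE), adjusted p = 0.261), Hadhb (-0.29 ± 0.12 (SE), adjusted p = 0.326) and Acadm (-0.27 ± 0.12 (SE), adjusted p = 0.354). The count of 6 fell to 2 without KO + AAV-PRDM16 replicate 1 and to 3 without WT + AAV-PRDM16 replicate 1, 2 or 3, and limma-voom put it at 9.

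Markers of other cells were summed in the same libraries. Macrophage markers (4 genes) summed to 14.3 to 30.7 CPM in the 6 WT and 25.2 to 92.5 in the 6 KO libraries. White adipocyte markers (5 of 6 listed genes were found) summed to 11.8 to 61.0 CPM in WT and 53.1 to 256 in KO. Brown adipocyte markers summed to 3226 to 6509 CPM in WT and 3427 to 4409 in KO, and general adipocyte markers to 9428 to 10912 and 9059 to 10094. Skeletal muscle markers were at most 2 CPM except in WT + AAV-PRDM16 replicate 2 (28.9) and KO + AAV-GFP replicate 1 (105). Their part in the lower member levels was not tested.

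The comparison of the viruses asks what added PRDM16 does. Prdm16 itself stood at 23.9 to 40.2 CPM in the 6 AAV-GFP libraries and 45.9 to 128 in the 6 AAV-PRDM16 libraries (1.49 ± 0.24 (SE) on the log2 scale, adjusted p = 0.0527 by edgeR). In WT, all 10 members had a log2 fold change above 0 (52.1% of all genes were below 0), with a median of 0.12 (lowest 0.07, highest 0.31) against -0.01 over all genes. None passed an adjusted p of 0.05, a threshold that 0% of all genes passed, and DESeq2 and limma-voom passed 0 as well. Cpt2 was the 1 member with an unadjusted p under 0.05 (0.31 ± 0.14 (SE), unadjusted p = 0.0396, adjusted p = 0.654 by edgeR), against 2.1% of all genes higher. That count was 0 without WT + AAV-GFP replicate 1 or 3, without WT + AAV-PRDM16 replicate 1 or 2, without KO + AAV-PRDM16 replicate 1, and with the trends in GC content and length removed. The AAV-PRDM16 libraries of Acadvl, Hadha and Hadhb lay above those of AAV-GFP without overlap, as 6.39% of all genes did.

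Markers of other cells also stood at different levels in the WT mice given either virus. Macrophage markers summed to 18.5 to 30.7 CPM in WT + AAV-GFP and 14.3 to 17.6 in WT + AAV-PRDM16, and general adipocyte markers to 9428 to 10372 and 10663 to 10912, both without overlap. T cell markers (5 genes) summed to 1.17 to 13.9 CPM and 0.732 to 1.24, and brown adipocyte markers to 3226 to 5435 and 4808 to 6509. All markers of these lists had counts in both groups. Their part in the members' levels was not tested.

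In KO the members differed by little between the viruses. Their median was -0.02 (lowest -0.10 for Hadha, highest 0.05 for Cpt1b), with standard errors of 0.10 to 0.17. None had libraries that did not overlap, against 9.43% of all genes, and none had an unadjusted p under 0.05, against 6.41%. Without KO + AAV-GFP replicate 3, Hadha was lower with AAV-PRDM16 at that threshold, and the number of members below 0 ran from 1 (without KO + AAV-GFP replicate 1) to 8. The test of the difference between the genotypes' responses gave a median of -0.12 over the members (lowest -0.35, highest -0.05), all 10 below 0 (50.3% of all genes). None had an unadjusted p under 0.05 (3.19% of all genes), at a smallest unadjusted p of 0.0941 for Cpt2 (-0.35 ± 0.19 (SE), adjusted p = 0.9998 by edgeR), so the responses in WT and KO were not shown to differ. That count was 2 (Cpt2 and Hadha) without KO + AAV-GFP replicate 3 and 1 (Cpt2) without WT + AAV-GFP replicate 2 or with limma-voom, with no adjusted p under 0.05. Over both genotypes the members' median was 0.04 (lowest 0.01, highest 0.14), and none had an unadjusted p under 0.05 (smallest 0.174), against 9.09% of all genes.

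KO mice given PRDM16 were also set against WT mice given GFP, which share libraries with the comparisons above. The members' median was -0.18 (lowest -0.27, highest 0.05). Acadvl was the 1 member with an unadjusted p under 0.05 (-0.27 ± 0.11 (SE), unadjusted p = 0.0339, adjusted p = 0.591 by edgeR), against 4.42% of all genes lower. The KO + AAV-PRDM16 libraries of Acadvl, Hadha and Hadhb lay below WT + AAV-GFP without overlap, as 7.09% of all genes did. The count of 1 was 0 without KO + AAV-PRDM16 replicate 1 or 2, without WT + AAV-GFP replicate 2 or 3, with only the 2 groups in the fit, and once GC and length trends were removed. It was 2 without KO + AAV-GFP replicate 3 or WT + AAV-GFP replicate 1, 4 without KO + AAV-PRDM16 replicate 3, and 5 with limma-voom.

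In the untreated cohort, which asks what the loss of CPEB2 does without any virus, the members pointed both ways. Of the 10, 5 had a log2 fold change below 0 and 5 above (48.2% of all genes were below 0), with a median of -0.12 (lowest -0.72 for Acadm, highest 0.29 for Acaa2) against 0.04 over 17869 genes. The number below 0 was 8 without KO replicate 5, 8 with the trends in GC content and length removed, and 4 among the libraries with Xist. None had an unadjusted p under 0.05, against 10.9% of all genes lower and 4.99% higher, and 0% of all genes passed an adjusted p of 0.05. The count of members at an unadjusted p under 0.05 was 1 (Acadm) without KO replicate 1, without WT replicate 3 or 4 and with DESeq2, and 2 (Acadm and Acadl) without KO replicate 4. DESeq2 and limma-voom passed 0 members too. At the study's threshold of at least 2-fold and an adjusted p of at most 0.5, 10.8% of all genes but no member was called. The libraries of no member were free of overlap, against 1.4% of all genes. Standard errors ran from 0.27 to 0.35 on the log2 scale, against 0.10 to 0.17 in the comparisons of 3 with 3 AAV libraries.

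The largest differences were in the dehydrogenases of medium and long chains. Acadm held 2151, 2103, 1307, 1370.2 and 2484 CPM in the WT and 1665, 660.2, 1081, 1597 and 709 in the KO libraries. The KO values ran low, with replicates 2, 3 and 5 under every WT library, and replicates 1 and 4 within the WT range. The difference was -0.72 ± 0.34 (SE) (unadjusted p = 0.0525, adjusted p = 0.315 by edgeR). Acadl held 1892, 1969.9, 1854, 1573 and 2528 CPM in WT and 1612, 886, 1446, 1950.1 and 969.9 in KO, a difference of -0.52 ± 0.28 (SE) (adjusted p = 0.353), and again replicates 2, 3 and 5 were under every WT library. For both genes the fold change was below 0 under all 20 alternatives, from -0.90 to -0.45 for Acadm and from -0.72 to -0.31 for Acadl.

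Acadvl, for the longest chains, had a difference near 0. It held 1914, 1772, 2182, 1675 and 2404 CPM in WT and 1758, 850.0, 2657, 2210.0 and 2807 in KO. Of the KO libraries, 2 were above every WT library and 1 was below every WT library. The fitted difference was 0.05 ± 0.32 (SE) (adjusted p = 0.945), and it was 0.28 without KO replicate 2 and -0.36 once trends in GC content and length were removed.

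The entry enzymes split in the same libraries. Cpt1a held 19.2, 15.2, 10.5, 16.2 and 11.5 CPM in WT and 15.4, 19.2, 8.60, 8.08 and 8.28 in KO, where replicates 3, 4 and 5 were below every WT library and replicate 2 was level with the highest WT library. Cpt1b held 793, 722, 760.4, 705 and 775 CPM in WT and 648, 615, 1022, 904 and 1389.6 in KO, where replicates 3, 4 and 5 were above every WT library and the other two below. Neither passed the test, at -0.29 ± 0.30 (SE) for Cpt1a (adjusted p = 0.602 by edgeR) and 0.29 ± 0.27 (SE) for Cpt1b (adjusted p = 0.552). In KO replicate 2, Gm44502, the gene that overlaps Cpt1b, held 55.9 CPM, against 7.63 to 19.4 in the other untreated libraries.

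Cpt2 held 420.2, 348, 376, 344 and 633 CPM in WT and 403, 159.6, 538, 490.4 and 686 in KO, from the lowest to the highest value of the cohort within the KO group. Hadh held 957, 1018, 1029, 959.8 and 1207 CPM in WT and 961, 492, 1564, 1048 and 1813 in KO, with the same KO libraries at the ends. Acaa2 held 1314, 1281, 1588, 1477 and 1345 CPM in WT and 1083, 1019, 2321, 1597 and 2541 in KO. The WT values of Hadh and Acaa2 lay close together and the KO values spread on both sides of them. The differences were 0.10 ± 0.35 (SE), 0.18 ± 0.32 (SE) and 0.29 ± 0.30 (SE) in that order, with adjusted p = 0.885, 0.761 and 0.598 by edgeR. Hadha held 2519.9, 1904, 1156, 1316 and 1729.7 CPM in WT and 1608, 558, 1818, 1328 and 1681 in KO, and Hadhb held 2146, 1877, 1535, 1574 and 2399 in WT and 1651, 684, 1986, 1418 and 1146 in KO. Replicate 2 was again the lowest of the cohort, and the other KO libraries of Hadha lay within the WT range. For Hadhb, KO replicates 4 and 5 also lay under every WT library. The trifunctional protein subunits differed by -0.30 ± 0.34 (SE) for Hadha (adjusted p = 0.633) and -0.47 ± 0.31 (SE) for Hadhb (adjusted p = 0.409).

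**Figure D3:**
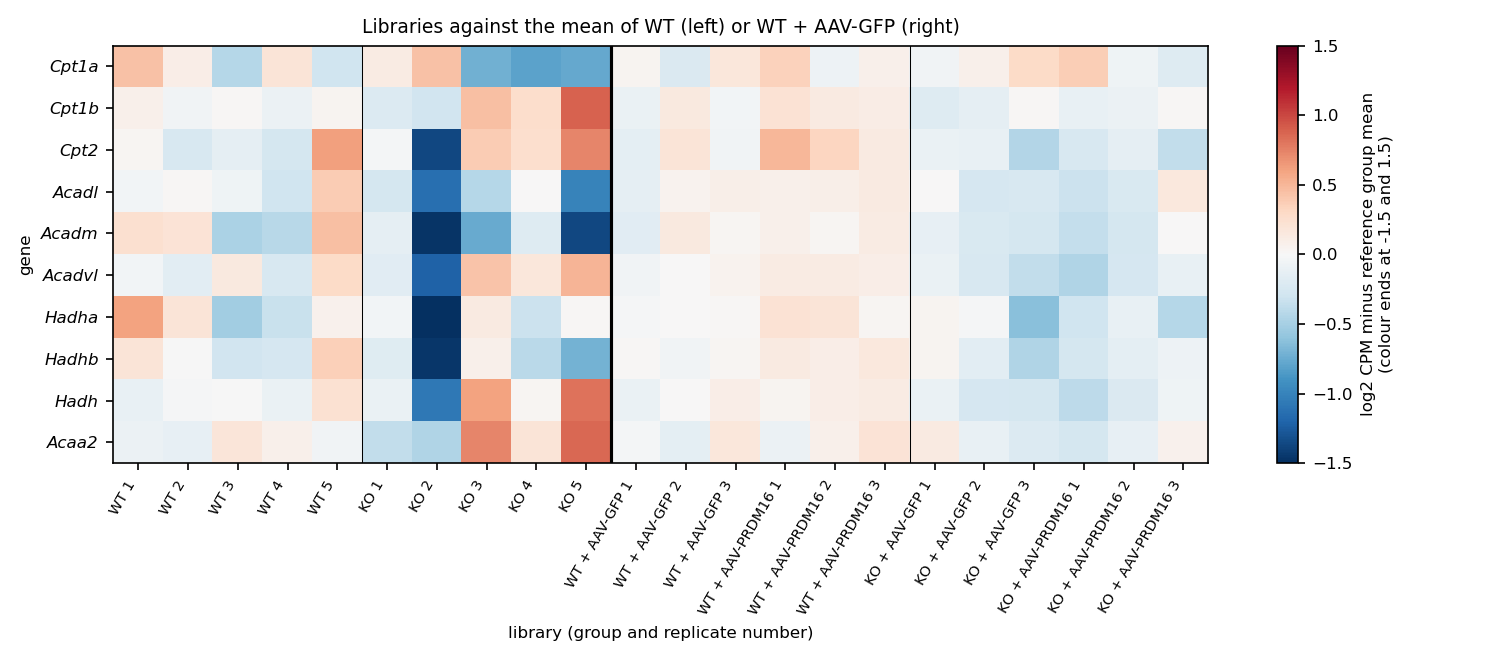
Each cell is the log2 CPM of a gene in a library minus its mean in WT (untreated libraries, left of the thick line) or in WT + AAV-GFP (AAV libraries, right of it), coloured from -1.5 (blue) to 1.5 (red). KO replicate 2 is blue in 9 of 10 genes, down to -1.57 for Hadha, and KO replicate 5 runs from -1.36 for Acadm to 0.89 for Cpt1b. The AAV libraries stay between -0.63 and 0.49.

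The KO libraries differed widely from each other. Against the WT mean, KO replicate 2 had a median of -1.17 over the members on the log2 scale and was lower in 9 of 10. It also held the highest muscle markers of the series (7362 CPM) and the smallest share of counts in the 10 genes (0.875%). KO replicates 3 and 5 had medians of 0.26, with Acadm at -0.75 and -1.36 as their lowest members. The members' median fold change between KO and WT turned from -0.12 to 0.10 without KO replicate 2, to 0.05 without WT replicates 1 and 2, and to 0.09 among the 6 libraries with Xist. It was -0.13 without KO replicate 1, the library with Cpeb2 at the WT level. With Y-linked transcripts as a covariate the median was -0.35, 8 members were below 0 and 3 (Acadm, Acadl and Hadhb) had an unadjusted p under 0.05. Brown adipocyte markers summed to 4446 to 8474 CPM in WT and 3800.1 to 12092 in KO. Liver markers (3 genes) summed to 34.4 CPM in KO replicate 5 and to at most 1.41 in the other untreated libraries. The part of muscle, liver, sex-linked and brown adipocyte transcripts in the members' levels was not tested.

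GC content was taken from the longest annotated transcript of each gene. It varied among the members from 39.1% (Hadhb) over 45.1% (Acadl) and 48.0% (Acadm) to 51.0% to 53.9% in the other 7. For Hadhb that transcript has 3 exons and 4388 bases, against 2048 bases in the transcript with the longest coding sequence. For Hadh these lengths were 3751 and 1789 bases. Their GC content here need not be that of the coding transcript. In KO replicate 5 the difference from the WT mean was larger in members of higher GC content, with r = 0.68 over the 10 members, which share that library and include the neighbours Hadha and Hadhb. The same r was 0.15, 0.38, 0.40 and 0.42 in KO replicates 1 to 4 and between -0.33 and 0.36 in the WT libraries. Without the scarce Cpt1a, r over 9 members was 0.75 in KO replicate 5 and 0.11, 0.45, 0.54 and 0.73 in KO replicates 1 to 4. In the WT libraries it was then between -0.35 and 0.43. A slope against GC content was fitted for each library across 5380 genes (5743 in the AAV cohort), after subtracting each gene's mean log2 CPM over its cohort. It is therefore relative to the other libraries of the cohort. The slope was 1.03 log2 units per 10 GC points in KO replicate 5 and 0.46 in KO replicate 3, against -0.53 to -0.05 in WT. In the AAV cohort it stayed between -0.13 and 0.06. With the trends in GC content and length removed, the KO vs WT value of Hadhb turned from -0.47 to 0.32, that of Acaa2 from 0.29 to -0.27 and that of Cpt2 from 0.10 to -0.26. Acadm kept its sign (-0.56), and so did Acadl (-0.39).

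**Figure D4:**
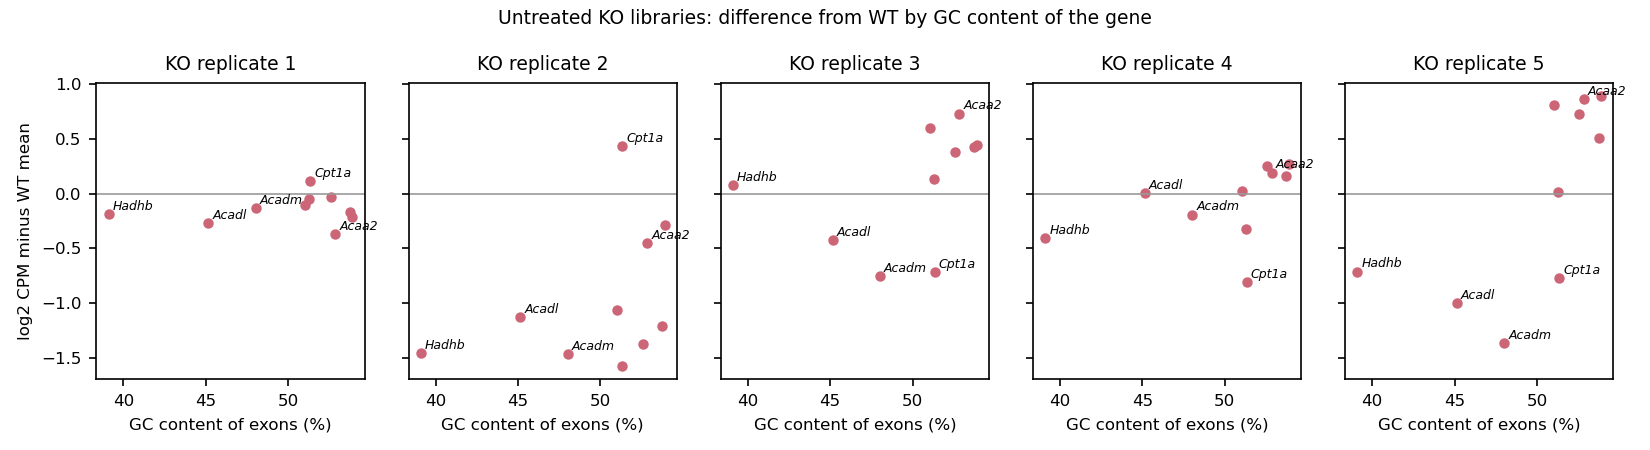
For each of the 5 untreated KO libraries, the log2 CPM of a gene minus its WT mean is plotted against GC content, 1 point per gene and 10 per library. GC content is that of the gene's longest annotated transcript, although the axis label names exons. In KO replicate 5 Hadhb, Acadl and Acadm, the members of lowest GC content, lie below 0 and so does Cpt1a, with Cpt1b and Acaa2 at the top, while in KO replicate 1 all points lie between -0.37 and 0.12.

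The ratio of Cpt1b to Cpt1a compares the forms of the inhibited entry step within a library. In log2 CPM it was 5.73 ± 0.38 (SD, n = 5) in WT and 6.30 ± 1.03 in KO, where it ran from 5.0 in replicate 2 to 7.39 in replicate 5. The difference of 0.57 did not pass an exact permutation test (two-sided, p = 0.238, adjusted p = 0.623 over 6 ratio tests, smallest p possible 0.00794). In the AAV cohort it was 5.76 ± 0.23 in the 6 WT and 5.59 ± 0.24 in the 6 KO libraries (exact permutation within virus, two-sided, p = 0.28, adjusted p = 0.623). Between the viruses it differed by 0.08 (p = 0.585, exact permutation within genotype).

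The ratio of Hadha to Hadhb, subunits of 1 enzyme from the neighbouring genes shown at the start, was near 0 in log2 CPM. It was -0.18 ± 0.30 (SD, n = 5) in WT, between -0.47 and 0.23, and 0.00 ± 0.32 in KO, between -0.29 and 0.55 (exact permutation, p = 0.397, adjusted p = 0.623). In the AAV cohort it was -0.03 ± 0.09 in WT and -0.11 ± 0.17 in KO (exact permutation, p = 0.415, adjusted p = 0.623). Across libraries the levels of these neighbours had r = 0.85 in the 10 untreated and 0.85 in the 12 AAV libraries, which include the differences between groups.

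The members' levels were also set against each other across libraries. Over the 45 pairs of members, the median r between log2 CPM was 0.66 across the 12 AAV libraries (lowest -0.42, highest 0.97 for Acadvl with Hadh), and 9 pairs were negative. Without Cpt1a none of the 36 pairs was negative. Across the 10 untreated libraries the median was 0.40 (lowest -0.80, for Cpt1a with Acaa2), and 12 pairs were negative. The pairs share libraries and group differences, so r describes these libraries only.

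The genes most like the members were searched among 13617 genes with a symbol tested in both cohorts by r with the members' mean log2 CPM. They were Coq5, an enzyme of coenzyme Q synthesis (r = 0.99 in the 10 untreated and 0.95 in the 12 AAV libraries), Pctp (0.95 and 0.90), Decr1 (0.89 and 0.95), Grpel1 (0.89 and 0.90) and Mccc2 (0.89 and 0.89). Decr1 is the dienoyl-CoA reductase that helps unsaturated fatty acids through beta-oxidation. These values are descriptions, with the libraries shared by all genes.

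The steps around the members were followed in 4 lists. In KO vs WT over both viruses, edgeR called 2.18% of all genes at an adjusted p of 0.05. Of 10 tested genes of acyl-CoA entry (median -0.44 on the log2 scale), 2 were lower at that threshold and none higher. They were Slc25a20, which carries acylcarnitine across the inner membrane between Cpt1 and Cpt2 (-0.43 ± 0.08 (SE), adjusted p = 0.0253 by edgeR), and Slc22a5, the carnitine importer (-0.48 ± 0.09, adjusted p = 0.0297). Acsl6 did not pass the filter.

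Of 18 other matrix enzymes, 4 were lower and none higher, against 2.18% of all genes called. All 18 were below 0, against 48.4% of all genes, and the median was -0.20. The 4 were Decr1 (-0.35 ± 0.07 (SE), adjusted p = 0.0307 by edgeR), the acyl-CoA dehydrogenase Acad11 (-0.60 ± 0.13, adjusted p = 0.0367), the enoyl-CoA isomerase Eci1 (-0.38 ± 0.08, adjusted p = 0.0415) and the acyl-CoA thioesterase Acot2 (-0.79 ± 0.18, adjusted p = 0.0492). Of 17 peroxisomal genes, 3 were lower and none higher, with a median of -0.33. They were the thiolase Acaa1b (-0.81 ± 0.15 (SE), adjusted p = 0.0207 by edgeR), the enoyl-CoA reductase Pecr (-0.50 ± 0.09, adjusted p = 0.0225) and the acyl-CoA transporter Abcd3 (-0.44 ± 0.09, adjusted p = 0.0325).

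Of 18 regulators, 1 was lower and 1 higher, with a median of -0.12. The lower one was Mlycd, which breaks down the malonyl-CoA that inhibits Cpt1 (-0.49 ± 0.10 (SE), adjusted p = 0.0326 by edgeR), and the higher one Lpin1, a phosphatidate phosphatase and coactivator of fatty acid oxidation genes (0.65 ± 0.15, adjusted p = 0.0475). Over all 18899 genes 2.18% were called, with a median of 0.01. The calls in the 4 lists come from the edgeR fit alone, and their values under alternatives are not given. Over all genes, the number called fell from 412 to 89 without KO + AAV-PRDM16 replicate 1. In the other 8 comparisons no gene of the 4 lists passed an adjusted p of 0.05.

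**Figure D5:**
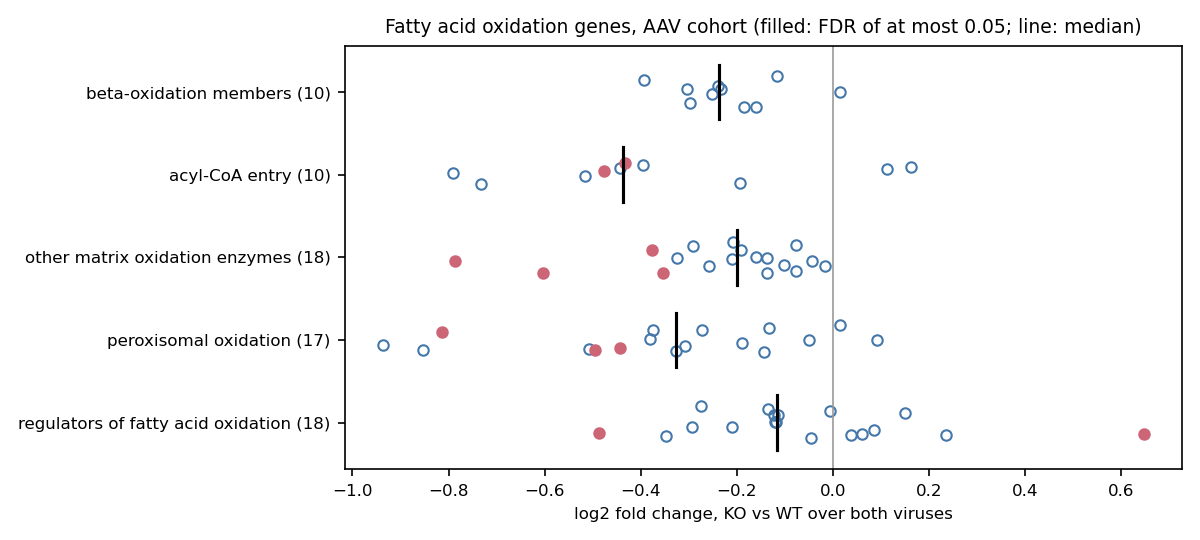
Log2 fold change of KO vs WT over both viruses for the 10 members and the tested genes of 4 lists (10, 18, 17 and 18 genes), 1 point per gene, filled where the adjusted p was at most 0.05, with the list's median as a line. The medians lie at -0.24, -0.44, -0.20, -0.33 and -0.12, no member is filled, and Lpin1, at 0.65, is the filled point on the right.

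In the untreated cohort the most abundant genes of the lists also had values on both sides of 0. Acsl1, which activates long-chain fatty acids, differed by -0.49 ± 0.29 (SE, adjusted p = 0.375 by edgeR) and Crat by 0.49 ± 0.32 (adjusted p = 0.406). Etfb and Acat1 differed by 0.48 ± 0.40 and -0.33 ± 0.28, the peroxisomal Ech1 by 0.58 ± 0.36, and the acetyl-CoA carboxylases Acaca and Acacb, which make malonyl-CoA, by -0.83 ± 0.62 and -0.19 ± 0.43. None of these passed the adjusted test. Over whole lists the untreated medians were -0.15 for acyl-CoA entry (7 of 11 genes below 0), 0.01 for the other matrix enzymes (9 of 18), -0.44 for the peroxisomal genes (10 of 17) and -0.16 for the regulators (11 of 18).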

How the data were processed

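Genotype, virus and replicate number were taken from the sample labels. The authors deposited a table of raw counts per gene for each cohort, with 1 column per mouse. Per the submitters' processing notes, bcl2fastq 2.20, Trimmomatic 0.36 and HISAT2 were used on GRCm38.p6. The counting tool, annotation, and treatment of strand, molecular identifiers and duplicates are not given in the sources used here. The members and lists were chosen with earlier results of these data known.

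Counts were filtered (filterByExpr), scaled by TMM and tested by edgeR 4.0.16 in R 4.3.3 (quasi-likelihood, two-sided, Benjamini-Hochberg over all genes tested), with 10 untreated libraries in 1 fit and 12 AAV libraries in another. SE is the fold change over the root of F. CPM used TMM-scaled totals, and log2 CPM a prior count of 2. Ratios were tested by exact permutation. The fit was tested on simulated counts. DESeq2 1.42.0, limma 3.58.1 and other alternatives were tried, and genes to which DESeq2 gave no adjusted p were left out of its shares. GENCODE M21 matched 55227 of 55487 identifiers, and promoters came from RefSeq. All 10 members were named, other list genes when called, or otherwise the 2 most abundant. The values of 1 such gene are not reported here. Nothing says that mice came from separate litters, so p-values measure only the spread between these mice. Intervals of counting are not given, since counts of the members are large.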

Additional observations from a re-analysis of the deposited data

Results flagged for a closer look

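Among the 24 sets of values checked for a library far from its group (groups of 4 to 10 mice), 2 were picked out, both in WT and both for WT replicate 5, a library with Xist. Chance picks out about 1 in 20 such sets. Cpt2 was at 633 CPM there against 420.2 in the next WT library, a gap of 0.736 of the whole range. Hadh was at 1207 CPM against 1029, a gap of 0.715 of the range. The limit for 5 libraries is 0.71.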

How the results depend on the processing

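Of the members' counts and medians and of the ratios, 598 values under alternatives were classed as the same, 9 as moved and 2 as reversed. Changes in the members called at an adjusted p of 0.05 follow, then ranges of medians and ratios, some of which changed sign. Changes of the untreated median are given above. With AAV-PRDM16, members at an adjusted p of 0.05 in KO vs WT numbered 2 with DESeq2 (Cpt2, Acadvl) and 3 with limma-voom (also Hadh), against 0. Over both viruses they numbered 3 with DESeq2 (Cpt2, Acadvl, Hadh), 5 with limma-voom (also Acadm and Hadhb), and 0 to 1 when a library was left out (1, Acadvl, without KO + AAV-GFP replicate 1). The cause was not tested.

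The replicate block put that count at 1 (Cpt2, adjusted p = 0.045 by edgeR). Same-numbered libraries did not deviate together (r from -0.09 to 0.15 in 18 AAV and from -0.29 to 0.11 in 5 untreated pairs), so the numbers were not taken to pair mice, and the block changed no other call at an adjusted p of 0.05. At an unadjusted p under 0.05 it gave 4 members in place of 6 with AAV-PRDM16 and 6 in place of 7 over both viruses.

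With libraries left out, the members' median in KO vs WT ran from -0.25 to -0.12 with AAV-GFP and from -0.36 to -0.23 with AAV-PRDM16, and between viruses in KO from -0.077 to 0.0527. The Cpt1b to Cpt1a difference between viruses ran from -0.0020 to 0.17 and the Hadha to Hadhb difference from -0.0817 to 0.0169, turning sign without KO + AAV-PRDM16 replicate 3 (-0.0020 and 0.0169). The 7 members with an unadjusted p under 0.05 over both viruses, and the 6 with AAV-PRDM16, kept their direction under every alternative run.

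Over all genes, the number at an adjusted p of 0.05 depended on the tool. It was 412 over both viruses with edgeR, 1584 with DESeq2, 1269 with limma-voom, and as low as 89 without KO + AAV-PRDM16 replicate 1. With DESeq2 and edgeR it was 619 and 9 for KO vs WT with AAV-PRDM16, 243 and 10 with AAV-GFP, 157 and 1 for KO + AAV-PRDM16 vs WT + AAV-GFP, and 1 and 0 for the interaction. Between viruses it was 602 and 7 over both genotypes, 152 and 0 in WT and 266 and 0 in KO. In the untreated cohort it was 0 with either. Each member held at least 407 counts in each library, and whether depth bears on the calls was not tested.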
